A study of Mus musculus with 6 samples.

Results

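Muscle loses protein through a set of genes that tag contractile and metabolic proteins for breakdown, and 10 of these genes were followed here in the hearts of mice given doxorubicin (Dox) and the ginsenoside Rh2. They were chosen by gene symbol and are 10 of the 45777 genes in the deposited table. The genes comprised 5 ubiquitin ligase genes (Fbxo32, Trim63, Fbxo30, Fbxo40 and Fbxo21), the ligand gene Mstn and its receptor gene Acvr2b, and 3 transcription factor genes (Foxo1, Foxo3 and Klf15). All 10 passed a low-count filter (an average of 10 counts or more per library), as did 18328 genes in all.

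The hearts came from female BALB/c nude mice (CAnN.Cg-Foxn1nu/Crl), a strain without a thymus, that all carried MDA-MB-231 human breast cancer xenografts. The labels give an age of 6 weeks, which by the paper's schedule preceded treatment, so the mice were older when the hearts were taken. Rh2, a ginseng saponin, was given daily at 20 or 30 mg/kg, and Dox, an anthracycline that damages the heart, was given every other day at 2 mg/kg to a cumulative 22 mg/kg, over 3 weeks. There were 6 conditions, with 1 library each, pooled from 5 hearts. Without Dox these were Control, Rh2-20 mg/kg and Rh2-30 mg/kg. With Dox they were Dox alone, Rh2-20 mg/kg + Dox and, at the higher Rh2 dose, Rh2-30 mg/kg + Dox. No condition had a replicate library, so spread could be estimated only by grouping libraries across Rh2 doses (3 with Dox against 3 without) or across Dox (4 with Rh2 against 2 without). Those p-values measure the spread between pools that also differ in Rh2 dose or Dox, and every library came from tumour-bearing mice, so a change shared by all of them cannot be seen.

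Each library held 86164411 to 90621002 counts. Marker genes of other tissue stood apart in the Rh2-30 mg/kg library. The summed level of the atrial markers was 1667 CPM (counts scaled to library size) there, against 45.7 CPM in Control, 62.0 CPM at 20 mg/kg of Rh2, 381 CPM in Dox, and 486 and 75.3 CPM with Dox plus Rh2 at 20 and 30 mg/kg. White fat markers summed to 58.0 CPM in the Rh2-30 mg/kg library and to between 0.115 and 12.2 CPM in the others. Brown fat markers reached 92.7 CPM there and 3.66 to 9.13 CPM elsewhere. Cardiomyocyte markers summed to 19559 CPM in that library, the lowest of the 6, and to 22904 to 26951 CPM in the rest. Blood (erythroid) markers were highest in Dox, at 10495 CPM, against 1657 to 5894 CPM in the other libraries. The part of tissue composition in the values below was not tested, and in pooled hearts fewer cells of a type and less RNA per cell cannot be told apart. Counts on gene lists are also given without the Rh2-30 mg/kg library where leaving it out changed them.

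As background, ubiquitin ligases bring a chosen protein to the ubiquitin conjugation machinery so that the proteasome can degrade it. Fbxo32 (atrogin-1) and Trim63 (MuRF1) are the classical ligases of the wasting programme in striated muscle, and FOXO transcription factors switch them on when insulin and Akt signalling is low. Myostatin acts through activin type II receptors and Smad proteins to restrain muscle mass, and Klf15 is a glucocorticoid-induced, clock-controlled factor that governs amino acid and lipid use in the heart.

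Promoter sequence was compared first, because FOXO factors, the glucocorticoid receptor and clock factors are known regulators of these genes. Of the 10 genes, 9 had a RefSeq promoter window (GRCm38.p6) of 300 bases, from 250 before to 50 after the transcription start, and Fbxo40 had a pair of windows, so that 10 windows were searched on both strands. The FOXO core GTAAACA was found in 1 of them, that of Trim63, and in 3.65% of all 32851 mouse windows. The window lies on the plus strand at chr4:134314870-134315169. Capitals mark the reverse complement of an arm of the glucocorticoid receptor element (AGAACA, first base at -200), directly followed by the reverse complement of the FOXO core (first base at -194).
Trim63: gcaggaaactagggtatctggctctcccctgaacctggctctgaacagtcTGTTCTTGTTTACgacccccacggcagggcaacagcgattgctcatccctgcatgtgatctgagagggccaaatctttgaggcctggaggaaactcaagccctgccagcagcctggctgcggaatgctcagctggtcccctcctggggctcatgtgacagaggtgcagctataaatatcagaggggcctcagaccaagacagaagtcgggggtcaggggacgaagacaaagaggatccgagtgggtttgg
The whole glucocorticoid element, AGAACA and TGTTCT separated by 3 bases, matched exactly in none of the 10 windows and in 0.00913% of all windows, but 11 of its 12 letters matched in Trim63, a score that 0.164% of windows reached. The arm placed directly against the FOXO core occurred in 1 of the 32851 windows, that of Trim63 itself. This arrangement was picked out after the letters were seen.

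The E-box CACGTG, the letters bound by the clock factors, was found 3 times in the Klf15 window and in no other of the 10, with 7.15% of all windows holding at least 1 and 0.0883% holding 3 or more. The Klf15 window is on the plus strand at chr6:90462326-90462625, and capitals mark the E-boxes, whose first bases lie at -228, -172 and -3.
Klf15: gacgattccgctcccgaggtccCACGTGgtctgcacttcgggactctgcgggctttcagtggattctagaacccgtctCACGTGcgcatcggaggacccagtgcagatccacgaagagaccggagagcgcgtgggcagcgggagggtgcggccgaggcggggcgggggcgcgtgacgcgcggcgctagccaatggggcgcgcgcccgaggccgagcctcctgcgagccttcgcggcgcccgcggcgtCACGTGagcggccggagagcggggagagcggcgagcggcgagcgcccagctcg
The AGAACA arm alone was in 1 Fbxo40 window, at -176, besides Trim63, and in 19.0% of all windows. Neither the FOXO insulin response element CAAAACA (6.28% of all windows) nor the D-box, TTAT joined directly to GTAA (0.938%), was in any of the 10 windows. These are matches of letters in the reference genome, not measured binding.

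Trim63 had the highest deposited level of the 10 genes per unit of transcript length. Its FPKM (fragments scaled to transcript length and to the mapped fragments of the library) had a median of 34.6 over the 6 libraries and ranged from 29.5 to 39.8, above every value of the other 9. Fbxo30 followed with a median of 14.95 FPKM, then Fbxo40 with 12.5, Fbxo32 with 10.6, Klf15 with 9.14, Foxo3 with 9.05, Foxo1 with 5.49 and Fbxo21 with 4.52 FPKM. Each of these neighbours overlapped the next in range, so their order was within the spread between libraries. The receptor gene Acvr2b (0.423 to 0.620 FPKM) and the ligand gene Mstn (0.139 to 0.376 FPKM) lay below the other 8 and did not overlap each other. These levels are from the deposited FPKM and depend on the length it divides by. In Control that was 2004 bases for Trim63 and 8987 bases for Fbxo32, which had more counts (11163 against 6928). The libraries were made with a capture kit, and how capture differs between genes was not tested. All later values in CPM are scaled counts, which do not compare levels between genes.

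**Figure D1:**
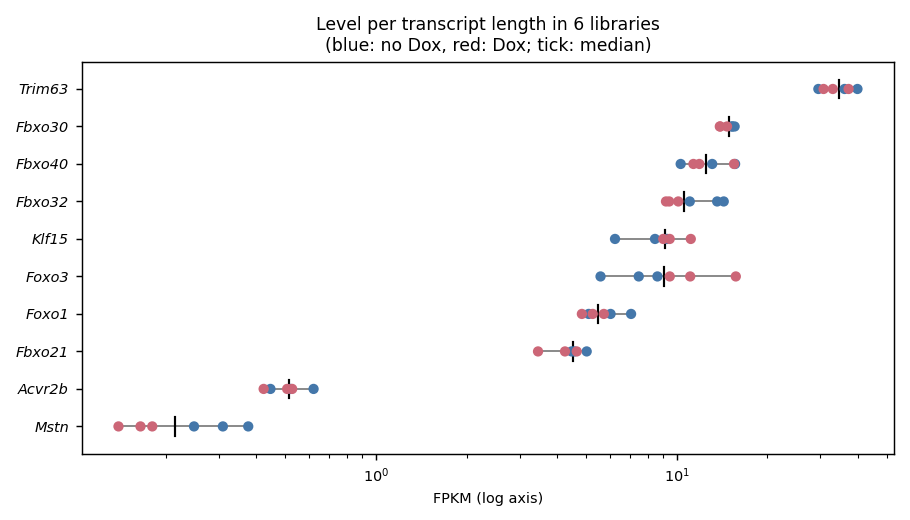
Level per transcript length of the 10 genes, in FPKM on a log axis, with 1 point for each of 6 libraries (blue without Dox, red with Dox), a line for the range and a black tick for the median. Trim63 (29.5 to 39.8 FPKM) stands above all others, and Mstn (0.139 to 0.376 FPKM) is the lowest.

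Between the highest and the lowest library, the CPM of Mstn differed by 2.68-fold and that of Klf15 by 1.81-fold, the widest ranges of the 10, while Fbxo30 had the narrowest, at 0.186 on the log2 scale. The median range of the 10 genes was 0.665 on the log2 scale, beside 0.607 for all tested genes.

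With Dox, the 10 genes went in different directions. Mstn was lower in all 3 Dox libraries than in the 3 without, Foxo3 and Klf15 were higher in all 3, and the other 7 overlapped. Across all tested genes 17% had libraries that did not overlap between Dox and no Dox. Without the Rh2-30 mg/kg library 4 of the 10 did not overlap, with Fbxo32 added (27.5% of tested genes). Without Control 4 did not either, with Foxo1, lower with Dox, added and Fbxo32 still overlapping (28.4%). Without Rh2-30 mg/kg + Dox 6 did not, with Fbxo32, Fbxo30 and Fbxo21 added (27.5%). None of the 10 passed an adjusted p-value of 0.05 in edgeR's quasi-likelihood test (background 0.0273% of tested genes, 5 genes, and 3 without the Rh2-30 mg/kg library), and DESeq2's Wald test and limma on FPKM likewise called none. At an unadjusted p-value under 0.05, 4 of the 10 were called, Foxo3 and Klf15 higher and Mstn and Fbxo32 lower, beside 10.1% of tested genes. Without the Control library Foxo3 was the only 1 of these 4 still called. With Rh2 dose as a term in the fit, which sets each Dox library against the one of the same dose, 3 of the 4 were called and Fbxo32 was not. The median log2 change of the 10 was -0.08, beside -0.01 for all tested genes.

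**Figure D2:**
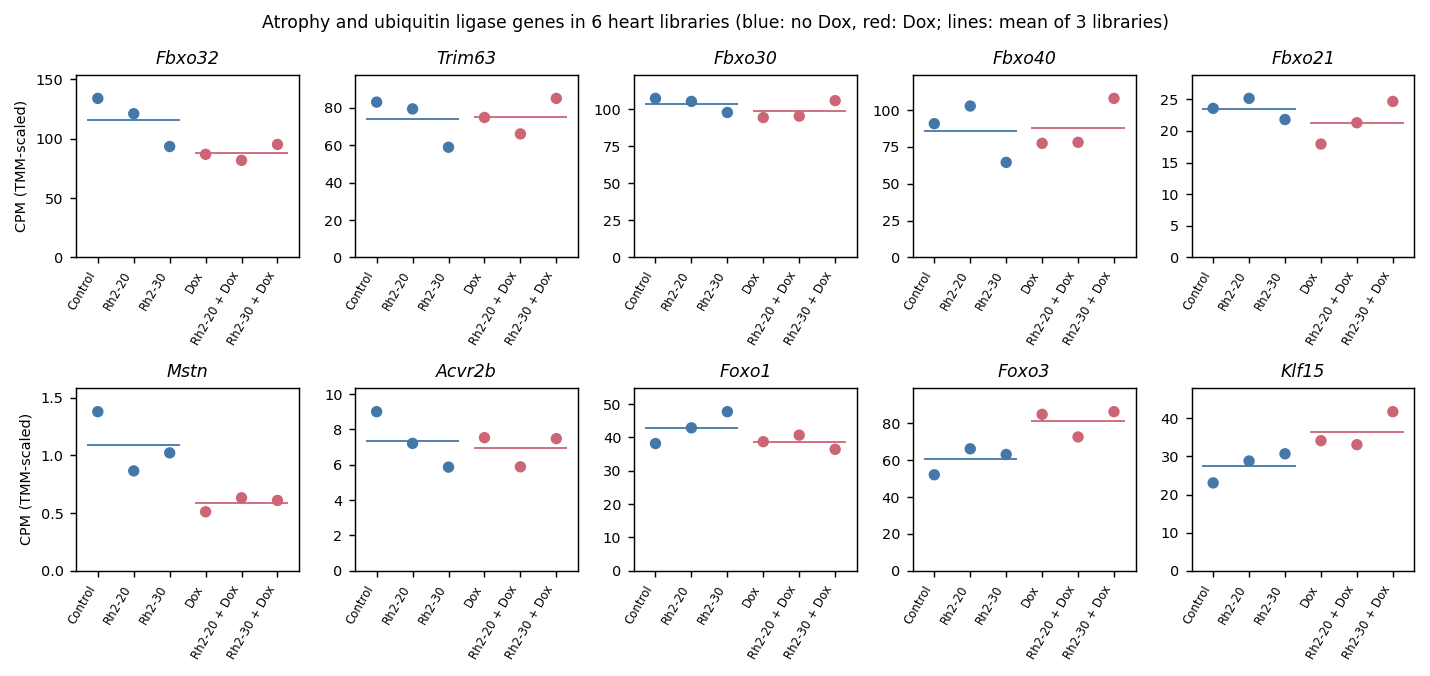
CPM of each of the 10 genes in the 6 libraries, with blue points without Dox, red points with Dox and lines at the mean of 3 libraries, each axis starting at 0. Foxo3 and Klf15 are higher and Mstn is lower in every red point than in every blue one, and the other 7 overlap.

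Fbxo32 encodes atrogin-1, the F-box protein that brings calcineurin and MyoD to a cullin ligase. It lies at chr15:58175879-58214892 (this and the other gene spans are from RefSeq on GRCm38.p6, the mm10 build). Its level was 134 CPM in Control against 86.9 CPM in Dox, 121 CPM at 20 mg/kg of Rh2 against 81.8 CPM when Dox was added, and 93.4 CPM at 30 mg/kg against 95.2 CPM when Dox was added, from 7301 to 11163 counts. Control and Rh2-20 mg/kg were thus above all others, and the groups overlapped because the Rh2-30 mg/kg library lay within the Dox range. The mean was 87.9 ± 6.76 CPM with Dox and 116 ± 20.7 CPM without (SD, n = 3 libraries each). The log2 change was -0.40 (SE 0.14, adjusted p = 0.422 by edgeR's quasi-likelihood test), a change of -24.3%, with a 95% interval from -0.74 to -0.06. Without the Rh2-30 mg/kg library, or without Rh2-30 mg/kg + Dox, the remaining libraries of the Dox and no-Dox groups no longer overlapped for Fbxo32.

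Read pair by pair, Fbxo32 was lower in Dox than in Control by a log2 ratio of -0.63 (95% interval -0.67 to -0.58) and lower in Rh2-20 mg/kg + Dox than in Rh2-20 mg/kg by -0.57 (-0.61 to -0.52). The pair at 30 mg/kg differed by only 0.03 (-0.02 to 0.07). Intervals of single-library ratios cover counting error only, and there is no replicate check on them.

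Trim63 encodes the RING ligase that acts on myosin heavy chain and troponin I. It lies at chr4:134315120-134329629. Trim63 measured 83.1 CPM in Control, 79.5 and 59.0 CPM with Rh2 at 20 and 30 mg/kg, 74.9 CPM in Dox, and 66.1 and 85.1 CPM with Dox plus Rh2 at 20 and 30 mg/kg. The lowest and the highest library were both from the 30 mg/kg dose, the former without and the latter with Dox. The log2 change with Dox was 0.03 (95% interval -0.34 to 0.40, adjusted p = 0.970 by edgeR's quasi-likelihood test). Its interval thus extended well to both sides of 0, whereas that of Fbxo32 lay below 0. The difference between both genes was not tested.

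Fbxo40 encodes a muscle-restricted F-box protein that targets the insulin receptor substrate. It lies at chr16:36963461-36990530. Its level was 90.8 CPM in Control against 77.5 CPM in Dox, 103 CPM at 20 mg/kg of Rh2 against 78.2 CPM when Dox was added, and 64.5 CPM at 30 mg/kg against 108 CPM when Dox was added. As with Trim63, the extremes were the libraries of the 30 mg/kg dose. The log2 ratio of Dox over no Dox was -0.23 without Rh2, -0.40 at 20 mg/kg and 0.74 at 30 mg/kg. That last ratio rests on the Rh2-30 mg/kg library, where atrial and fat markers were highest and cardiomyocyte markers lowest, and on Rh2-30 mg/kg + Dox, where cardiomyocyte markers were highest, at 26951 CPM. The log2 change of Fbxo40 with Dox was 0.03 with all libraries, -0.13 when Rh2-30 mg/kg was left out and -0.15 when Rh2-30 mg/kg + Dox was.

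Fbxo30, an F-box gene held down by BMP signalling in muscle, lies at chr10:11281330-11305750 and was the steadiest of the 10. It ranged from 94.3 CPM in Dox to 107 CPM in Control, and its log2 change with Dox was -0.07 (95% interval -0.27 to 0.13). Fbxo21, an F-box gene needed for denervation atrophy, lies at chr5:117976770-118010198. It was lowest in Dox, at 17.9 CPM, with 23.6 CPM in Control, 25.1 and 21.8 CPM with Rh2 at 20 and 30 mg/kg, and 21.3 and 24.7 CPM when Dox was added to these doses. The libraries given Dox and Rh2 thus lay above Dox by log2 ratios of 0.25 (95% interval 0.15 to 0.35) and 0.46 (0.37 to 0.56). All 5 ligase genes shared 1 feature, a ratio of Dox over no Dox that was below 0 on the log2 scale without Rh2 and at 20 mg/kg and above 0 at 30 mg/kg. At 30 mg/kg the interval of Fbxo32 included 0. Acvr2b had the same order of signs, so 6 of the 10 did, beside 15.8% of tested genes. This order was picked out after the values were seen, in genes read from the same libraries. These shares are thus a description and not a test. Of the cardiomyocyte markers, Pln, Myl2 and Ryr2 had the same order of signs, and Myh6, Tnnt2, Tnni3 and Actc1 did not. The 30 mg/kg ratios all rest on the pair of libraries whose cardiomyocyte markers were lowest and highest.

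**Figure D3:**
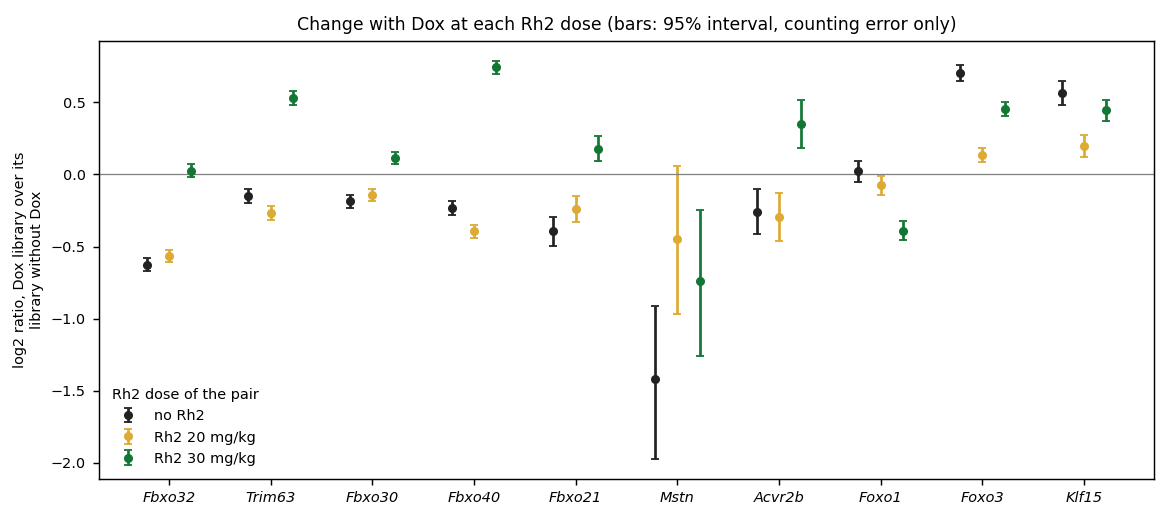
Log2 ratio of each Dox library over the library with the same Rh2 dose and no Dox, for the 10 genes (black without Rh2, yellow 20 mg/kg, green 30 mg/kg), with bars for the 95% interval of counting error. Foxo3 and Klf15 are above 0 and Mstn below 0 in all 3 pairs, while the 5 ligase genes are above 0 only at 30 mg/kg.

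Mstn encodes myostatin, the secreted TGF-beta family protein that restrains muscle growth, and the heart makes little of it. It lies at chr1:53061640-53068079. It had 115 counts in Control, 78 and 97 counts with Rh2 at 20 and 30 mg/kg, 43 counts in Dox, and 58 and 53 counts with Dox plus Rh2 at 20 and 30 mg/kg. Scaled, these were 1.38, 0.866 and 1.02 CPM without Dox and 0.512, 0.633 and 0.610 CPM with Dox, in the same order. All 3 Dox libraries were below all 3 others, and Control was the highest. The mean was 0.585 ± 0.0644 CPM with Dox and 1.09 ± 0.263 CPM without (SD, n = 3 libraries each). The log2 change was -0.90 (SE 0.28, 95% interval -1.55 to -0.24, adjusted p = 0.369 by edgeR's quasi-likelihood test), a change of -46.2%.

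Mstn was also the only member past a fold of 2 in a single-library ratio, and it was so in every Dox library against Control. The ratio was -1.42 on the log2 scale for Dox (95% interval -1.97 to -0.91), -1.12 for Rh2-20 mg/kg + Dox (-1.61 to -0.66) and -1.17 for Rh2-30 mg/kg + Dox (-1.68 to -0.70). Of all tested genes, 9.01%, 8.76% and 10.9% were past that fold in the same 3 ratios, in the order Dox, 20 and 30 mg/kg. These 3 ratios share the Control library. In the 2 pairs that leave Control out, Dox over no Dox was -0.45 at 20 mg/kg (-0.97 to 0.06) and -0.74 at 30 mg/kg (-1.26 to -0.25), and at 20 mg/kg the counting interval included 0. The deposited FPKM of Mstn was 0.376 in Control and 0.139 in Dox, and a pseudocount pulls the log2 ratio of such small values toward 0. The log2 ratio of Mstn for Dox over Control was -0.27 with a pseudocount of 1 and -0.99 with 0.1, short of a fold of 2. Foxo3 was past that fold instead, at 1.34 and 1.48.

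Skeletal muscle makes far more Mstn than heart, so its markers were read beside it. The 10 markers summed to 44.3 CPM in Control and 54.5 and 42.8 CPM with Rh2 at 20 and 30 mg/kg, and the 3 Dox libraries had from 24.98 to 34.7 CPM. The sum was thus lower in every Dox library, as Mstn was. Most of it was Mybpc2, a myosin-binding protein gene, at 33.1 to 51.5 CPM without Dox and 20.4 to 30.7 CPM with Dox. The other 9 markers together gave 4.62, 2.96 and 9.69 CPM without Dox and between 4.004 and 4.60 CPM with Dox, and overlapped. Pax7, the satellite cell marker, was at 0 in every library, and Myh4, the fast myosin gene, had at most 11 counts.

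Acvr2b encodes a receptor for myostatin and activins and lies at chr9:119401583-119442148. Its level was 9.00 CPM in Control against 7.53 CPM in Dox, 7.21 CPM at 20 mg/kg of Rh2 against 5.88 CPM when Dox was added, and 5.86 CPM at 30 mg/kg against 7.48 CPM when Dox was added. Control was the highest, and Dox lay just above the highest of the 4 libraries with Rh2. The log2 change with Dox was -0.08 (95% interval -0.52 to 0.37). With Rh2 it was -0.32 (SE 0.16, 95% interval -0.73 to 0.09, adjusted p = 0.601 by edgeR's quasi-likelihood test with a Dox term), the only gene of the 10 whose Rh2 libraries did not overlap those without, beside 19% of tested genes. Without the Control library the change with Rh2 was -0.17.

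Foxo3 encodes a forkhead factor that activates Fbxo32 and autophagy genes in muscle, and it lies at chr10:42181845-42276695. Its level was 52.1 CPM in Control, 66.2 and 63.2 CPM with Rh2 at 20 and 30 mg/kg, 85.0 CPM in Dox, and 72.7 and 86.4 CPM with Dox plus Rh2 at 20 and 30 mg/kg. The 3 Dox libraries were the highest and Control was the lowest. The mean was 81.4 ± 7.55 CPM with Dox and 60.5 ± 7.42 CPM without (SD, n = 3 libraries each). The log2 change was 0.43 (SE 0.12, 95% interval 0.14 to 0.71), 34.4% higher, with an adjusted p = 0.344 by edgeR's quasi-likelihood test and 0.0507 by DESeq2's Wald test. That Wald test called 423 of all tested genes, where edgeR's test called 5. By pair, the log2 ratio of Foxo3 was 0.70 without Rh2 (95% interval 0.65 to 0.76), 0.13 at 20 mg/kg (0.08 to 0.18) and 0.45 at 30 mg/kg (0.40 to 0.50).

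The deposited FPKM of Foxo3 spread more widely than its counts. It was 5.58 FPKM in Control against 15.7 FPKM in Dox, 8.62 FPKM at 20 mg/kg of Rh2 against 9.47 FPKM when Dox was added, and 7.47 FPKM at 30 mg/kg against 11.1 FPKM when Dox was added. Dividing counts by FPKM and library size gives the transcript length that the FPKM implies, and this was 8982 bases in Control and 5280 bases in Dox, with 7484 to 9143 bases in the other 4 libraries. The ratio of the longest to the shortest was 1.73, larger than in 98.0% of 17678 genes, whose median was 1.03. For the other 9 genes it was at most 1.11. Which Foxo3 transcripts the reads came from was not tested, and counts and FPKM gave different sizes for the same difference, with a log2 change with Dox of 0.72 in limma on log2(FPKM + 0.1) beside 0.43 from counts.

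Foxo1, the related forkhead factor, lies at chr3:52268337-52350109 and overlapped between Dox and no Dox. It was 38.2 CPM in Control, 42.9 and 47.7 CPM with Rh2 at 20 and 30 mg/kg, 38.7 CPM in Dox, and 40.7 and 36.4 CPM with Dox plus Rh2 at 20 and 30 mg/kg. The highest level was in Rh2-30 mg/kg. The log2 change with Dox was -0.15 (95% interval -0.40 to 0.10), and -0.06 without the Rh2-30 mg/kg library.

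Klf15 encodes a Krüppel-like factor that limits cardiac hypertrophy and drives amino acid breakdown genes, and it lies at chr6:90461043-90491803. Its level was 23.1 CPM in Control against 34.1 CPM in Dox, 28.8 CPM at 20 mg/kg of Rh2 against 33.1 CPM when Dox was added, and 30.7 CPM at 30 mg/kg against 41.7 CPM when Dox was added. Control was the lowest, Rh2-30 mg/kg + Dox was the highest and all Dox libraries lay above all others. The mean was 36.3 ± 4.73 CPM with Dox and 27.5 ± 3.98 CPM without (SD, n = 3 libraries each). The log2 change was 0.40 (SE 0.14, 95% interval 0.06 to 0.74, adjusted p = 0.422 by edgeR's quasi-likelihood test), 32.0% higher. By pair, it was 0.57 without Rh2, 0.20 at 20 mg/kg and 0.44 at 30 mg/kg. In the deposited FPKM the groups overlapped, since Rh2-30 mg/kg had 9.27 FPKM and Dox 9.01 FPKM. Foxo3 and Klf15 were the only 2 of the 10 higher with Dox in all 3 pairs, where 15.9% of tested genes were, and Mstn was the only 1 lower in all 3, where 17.8% were.

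**Figure D4:**
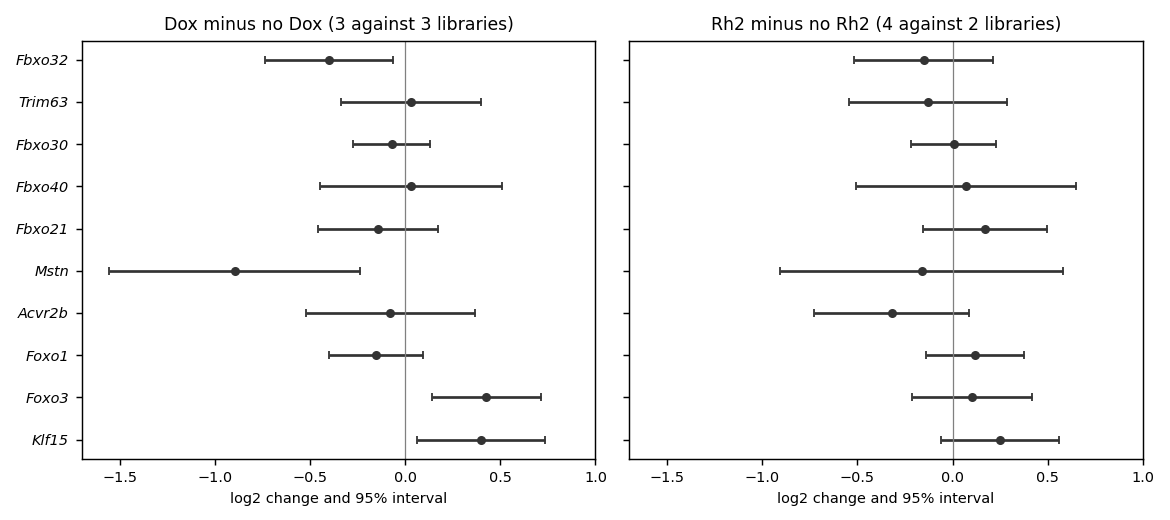
Log2 change and its 95% interval from edgeR's quasi-likelihood test for the 10 genes, with Dox (left, 3 libraries against 3) and with Rh2 (right, 4 libraries against 2, with a Dox term). The intervals of Fbxo32, Mstn, Foxo3 and Klf15 exclude 0 on the left, although none passed adjustment over all genes, and all 10 include 0 on the right.

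For Rh2, the estimates of the 10 genes all had intervals that included 0. None of the 10 passed an adjusted p-value of 0.05 in edgeR's quasi-likelihood test with Rh2 (0 of 18328 genes, 0%), and none had an unadjusted p-value under 0.05, beside 8.74% of tested genes. DESeq2's Wald test also called none of the 10. The smallest adjusted p-value was 0.598, for Klf15, with a log2 change of 0.25 (SE 0.13, 95% interval -0.06 to 0.56). Whether the change with Dox differed in mice given Rh2 was asked with an interaction term. None of the 10 passed it at an adjusted p-value of 0.05 (0%) or an unadjusted p-value under 0.05 (2.71% of tested genes), and the smallest adjusted p-value was 0.988. With only 2 residual degrees of freedom the intervals were wide, for example -0.61 to 2.26 on the log2 scale for Mstn.

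Single libraries showed how far each gene in the Rh2 + Dox hearts lay from Dox. No member was past a fold of 2 in either Rh2 + Dox library against Dox (6.49% of tested genes at 20 mg/kg and 10.1% at 30 mg/kg), nor in Rh2-20 mg/kg or Rh2-30 mg/kg against Control (6.11% and 10.1%). The largest of the differences from Dox at 30 mg/kg was that of Fbxo40, at 0.48 on the log2 scale (95% interval 0.43 to 0.53). At 20 mg/kg the largest below 0 was that of Acvr2b, at -0.36 (-0.53 to -0.19).

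Known partners and targets of the 10 genes were read from 11 further lists. No gene of any list passed an adjusted p-value of 0.05 with Dox or with Rh2 by edgeR's quasi-likelihood test. The counts that follow are at an unadjusted p-value under 0.05, to be set beside 10.1% of tested genes for Dox and 8.74% for Rh2. Without the Rh2-30 mg/kg library these shares were 9.17% and 7.99%. Among 16 other muscle ubiquitin ligases, 2 were higher with Dox and 0 lower. They were Ubr2, an N-end rule ligase, with a log2 change of 0.38 (adjusted p = 0.416), and Asb2, a cullin ligase subunit, with 0.38 (adjusted p = 0.435). None of the 16 was called when Rh2-30 mg/kg, Rh2-30 mg/kg + Dox or Dox was left out. Of 9 SCF core and cullin control genes, which build the ligase that Fbxo32 joins, none was called with Dox. The extremes of those 2 lists with Dox were small, with -0.20 for Nedd4l among the ligases and 0.15 for Nedd8 and -0.08 for Rbx1 in the SCF list. With Rh2, 3 of the 9 SCF genes were higher (Skp1a, Rbx1 and Nedd8) and 0 lower. There were 1 to 3 higher when a library with Rh2 was left out. Leaving out Dox or Control left 1 library without Rh2. The median log2 change of the SCF list with Rh2 was then 0.14 and 0.23, in that order, beside 0.16 with all libraries.

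Of 36 ubiquitin and proteasome genes, 1 was higher with Dox, the deubiquitinase gene Usp19 (log2 change 0.25), and the median was 0.02, beside -0.01 for all tested genes. No gene of that list was called with Dox when Rh2-30 mg/kg was left out. The lowest estimate was -0.19, for Psma4. With Rh2, 12 of the 36 were higher, with a median of 0.23 beside 0.01 for all tested genes. The 12 were proteasome subunits such as Psma6 (log2 change 0.37, adjusted p = 0.567) and Psma2 (0.36). That count fell with any library left out, to 1 without Dox, 4 without Control or without Rh2-20 mg/kg, 6 without Rh2-30 mg/kg + Dox, 8 without Rh2-20 mg/kg + Dox and 9 without Rh2-30 mg/kg. The share of all tested genes called with Rh2 was 3.65% without Dox and 7.99% without Rh2-30 mg/kg. Of 15 autophagy genes that FOXO factors control, 1 was higher with Dox, the mitophagy receptor gene Bnip3 at 0.45, and none was without Rh2-30 mg/kg or without Control. The related Bnip3l had the largest estimate of that list, 0.53, without being called, and Sqstm1 the lowest, -0.02. Bnip3l was highest in Dox (285 CPM) and lowest in Rh2-30 mg/kg + Dox (94.8 CPM). The blood markers had their highest and lowest sums in the same libraries, 10495 and 1657 CPM. The part of blood in the Bnip3l values was not tested.

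Other FOXO factors and targets went in both directions, with 2 of 14 higher and 2 lower with Dox. Pdk4, a kinase that shuts off pyruvate oxidation and a target of FOXO factors, was 305 CPM in Control, with 328 and 381 CPM at 20 and 30 mg/kg of Rh2, against 120 CPM in Dox, with 141 and 212 CPM at those Rh2 doses. The groups did not overlap, with a log2 change of -1.10 (SE 0.22, adjusted p = 0.216 by edgeR's quasi-likelihood test). Sesn3 was also lower (-0.44), whereas the related Sesn1 (0.47) and the cell cycle inhibitor gene Cdkn1b (0.23) were higher. The counts were 1 higher and 2 lower without Rh2-30 mg/kg, and 0 and 3 without Rh2-30 mg/kg + Dox.

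Of 17 insulin, IGF and mTOR signalling genes, 3 were higher with Dox and 0 lower, and 2 were higher without Rh2-30 mg/kg. Pik3r1, the regulatory subunit of PI3-kinase, had a log2 change of 0.66 (adjusted p = 0.344), and Irs1, the substrate that Fbxo40 targets, had 0.31 (adjusted p = 0.365). The lowest estimate was that of the growth factor gene Igf1, -0.42, which was not called. Of 20 other myostatin and activin signalling genes, 1 was higher and 2 lower. Smad7, an inhibitor of the pathway, was 42.0 CPM in Dox, with 34.7 and 29.5 CPM when Rh2 was added at 20 and 30 mg/kg, against 24.9 to 27.4 CPM without Dox. Smad2, a transducer of the signal, was lower (-0.21), as was Tll1 (-0.81), a protease of the family that frees myostatin from its propeptide. The lowest estimate of that list, -2.73 for the receptor gene Acvr1c, was not called and rested on the Rh2-30 mg/kg library, where white fat markers were highest. Of 13 tested ligase substrates, 1 was higher (Ppara, 0.50) and 2 lower (Dusp1 and Rcan1), or 1 and 1 without Rh2-30 mg/kg. Dusp1, a phosphatase gene, was 74.7 to 79.3 CPM without Dox and 40.3 to 47.3 CPM with Dox, a log2 change of -0.80 (SE 0.09, adjusted p = 0.0830 by edgeR's quasi-likelihood test), the smallest adjusted p-value on these lists.

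Klf15 is induced by glucocorticoids, and 2 of 12 glucocorticoid receptor and target genes were higher with Dox and 1 lower, or 1 and 1 without Rh2-30 mg/kg. Fkbp5, a chaperone gene that reports on receptor activity, was 20.8 CPM in Control, 35.2 and 51.5 CPM with Rh2 at 20 and 30 mg/kg, 51.5 CPM in Dox, and 65.2 and 112 CPM with Dox plus Rh2 at 20 and 30 mg/kg. As with Klf15, Control was the lowest and Rh2-30 mg/kg + Dox the highest. Sesn1 and Ppara, of other lists, had the same extremes, and how many of all tested genes did was not counted. The log2 change of Fkbp5 was 1.09 with Dox (SE 0.39, adjusted p = 0.422) and 0.92 with Rh2 (SE 0.27, adjusted p = 0.567), both by edgeR's quasi-likelihood test. With Rh2, 7 of the 12 were higher and 0 lower, and the median was 0.40 beside 0.01 for all tested genes. There were 8 higher when Rh2-30 mg/kg was left out (7.99% of tested genes). When another library with Rh2 was left out, 5 to 7 were higher (6.23% to 7.73% of tested genes), with 0 lower each time. Leaving out Dox or Control left 1 library without Rh2, and the median was then 0.23 and 0.50, in that order. The 7 included Tsc22d3 (0.43), Errfi1 (0.78) and Ddit4, at 8.93 CPM in Control and 8.17 CPM in Dox and 17.5 to 20.3 CPM in the 4 libraries with Rh2. Klf15 itself was not called with Rh2, and Mt2, a metallothionein gene, was lower with Dox (-1.11) and higher with Rh2 (0.63).

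Of 7 Klf15 targets, 1 was higher with Dox, the proline dehydrogenase gene Prodh, at 37.2 to 54.6 CPM with Dox and 23.1 to 31.8 CPM without. The lowest estimate there was -0.22, for Slc25a20. Of 14 clock genes, 2 were higher with Dox and 1 lower, or 1 and 1 without Rh2-30 mg/kg. Per2, a core clock repressor, was 139 to 142 CPM in the 3 libraries without Dox, and 252 CPM in Dox with 196 and 237 CPM at 20 and 30 mg/kg of Rh2, a log2 change of 0.70 (SE 0.11, adjusted p = 0.149 by edgeR's quasi-likelihood test). Cry1, its partner, was also higher (0.37), and Dbp, a clock output gene, was lower (-0.40). With Rh2, 4 of the 14 clock genes were lower (Npas2, Nr1d1, Per3 and Bhlhe41) and 0 higher. There were 1 to 5 lower when a library with Rh2 was left out. The median log2 change of the clock genes with Rh2 was -0.16 with all libraries. Without Dox or without Control, which left 1 library without Rh2, it was -0.16 and -0.21, in that order. The hour at which the hearts were taken is not given in the sources used here.

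**Figure D5:**
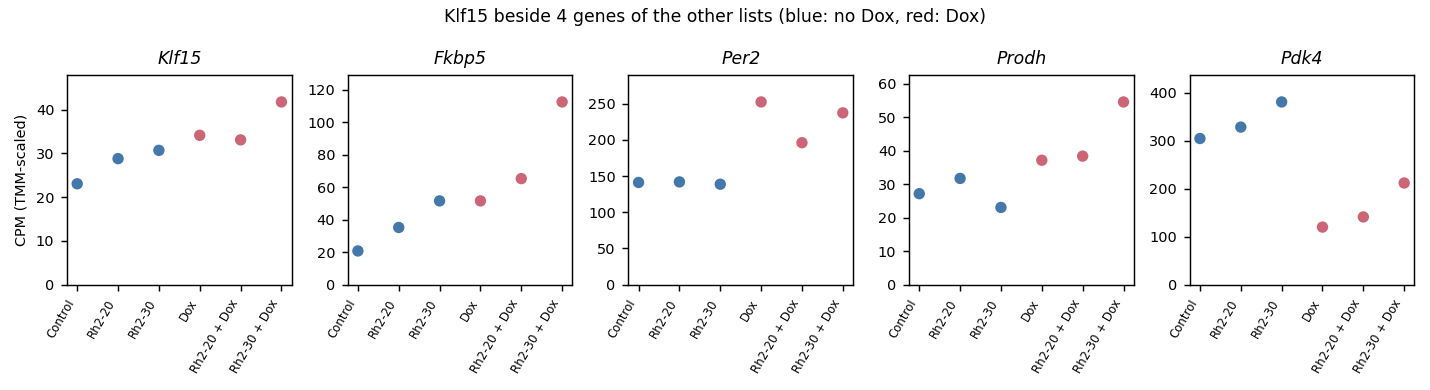
CPM of Klf15 and of Fkbp5, Per2, Prodh and Pdk4 in the 6 libraries, blue without Dox and red with Dox, each axis starting at 0. Fkbp5 shares with Klf15 its lowest library, Control, and its highest, Rh2-30 mg/kg + Dox, whereas Pdk4 is lower in all 3 Dox libraries.

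Among 13960 genes averaging 100 counts or more, those whose log2 CPM followed Mstn most closely over the 6 libraries were Galnt11 (Pearson's r = 0.999), Rsrc1 (0.992) and Asxl3 (0.991). Those closest to Klf15 were Anapc16 (0.990), 4930481A15Rik (0.989) and Rnasek (0.986). The points are 6 pools that share their libraries between genes, and these values are a description.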

How the data were processed

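RNA from hearts was captured, sequenced with 101-base reads and quantified by the authors. Per the labels and the study's methods, reads were trimmed with Trimmomatic, aligned to mm10 with HISAT2 2.1.0 and assembled with StringTie 2.1.3b on the UCSC table browser's annotation, after base calling with bcl2fastq 2.20.0. The deposited read counts are whole numbers per gene, not normalized. The deposited FPKM values (StringTie) are fragments corrected for transcript length and library size, and served for levels between genes and as an alternative. The deposited TPM values were not used. How reads of overlapping and similar genes were assigned, and strand handling, are not given in the sources used here.

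Counts were tested in R 4.3.3 with edgeR 4.0.16 (quasi-likelihood test, two-sided, TMM scaling, Benjamini-Hochberg adjustment over 18328 genes averaging 10 counts or more per library), and limma 3.58.1 and DESeq2 1.42.0 gave alternatives. Libraries were assigned to conditions by their titles. The models held Dox, Rh2 with a Dox term, or both with their interaction. Single-library log2 ratios used a prior count of 0.5 and exact conditional binomial 95% intervals. A fold of 2 counted as called. At this depth counting error is a few percent for most members and wider for Mstn. Alternatives were other scaling, filters, tests, prior counts, pseudocounts of 1 and 0.1 on FPKM, Rh2 dose in the fit and each library left out. Marker sums are CPM added over a list. Promoter windows came from RefSeq (GRCm38.p6) and gene positions from its gene table, matched by Gene ID. Figures were drawn with matplotlib 3.10.9.

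The 10 genes and the lists were chosen with earlier results of these data known. In each list the genes with the largest and the lowest change with Dox were named by rule, and other list genes were named after their values were seen. The steps were tested on simulated data. The values of 1 list gene are not reported here.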

Additional observations from a re-analysis of the deposited data

Results flagged for a closer look

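Mstn and Fbxo30 were flagged because both Rh2 doses lay below Control without Dox and above Dox with it. Mstn was 0.866 and 1.02 CPM with Rh2 against 1.38 CPM in Control, but 0.633 and 0.610 CPM with Rh2 and Dox against 0.512 CPM in Dox, and the counting intervals of the latter ratios included 0. Fbxo30 spanned 94.3 to 107 CPM over all libraries. At 20 mg/kg its log2 ratio was -0.03 over Control (95% interval -0.07 to 0.01). With Dox it was 0.02 over Dox (-0.03 to 0.06), so both counting intervals included 0. Foxo1 was flagged because its log2 ratio of Dox over no Dox was 0.02 without Rh2 and below 0 at either dose. The ratio was -0.08 at 20 mg/kg and -0.39 at 30 mg/kg. Without Rh2 its counting interval, -0.05 to 0.09, included 0. How many of all tested genes share these patterns was not counted. The change with Dox given Rh2, minus that without Rh2, was 0.83 on the log2 scale for Mstn, -0.25 for Foxo1 and 0.17 for Fbxo30. This difference was tested with an interaction term in edgeR's quasi-likelihood test, and none of the 3 passed, each with an adjusted p = 0.988. The Foxo1 ratio at 30 mg/kg and the Rh2 values without Dox rest in part on the Rh2-30 mg/kg library, where atrial and fat markers were highest.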

How the results depend on the processing

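No member passed an adjusted p-value of 0.05 with Dox, Rh2 or their interaction under any alternative run. With Dox, all 13 alternatives kept the sign of Fbxo32, Fbxo30, Fbxo21, Mstn, Foxo1, Foxo3 and Klf15. Trim63 and Fbxo40 turned to -0.0554 and -0.0045 with FPKM + 1 and to -0.0567 and -0.0043 with FPKM + 0.1. With each library left out in turn, the change with Dox ranged from -0.10 to 0.12 for Trim63, from -0.15 to 0.19 for Fbxo40, from -0.21 to 0.092 for Acvr2b, from -0.23 to -0.059 for Foxo1, from -0.13 to -0.041 for Fbxo30 and from -0.26 to -0.032 for Fbxo21. Members at an unadjusted p-value under 0.05 numbered 1 (without Control) to 4, and those not overlapping 3 to 6, an alternative chosen after seeing the data, as were the counts on gene lists with a library left out. Of all tested genes, 5 passed the adjusted threshold, 423 with DESeq2's Wald test, 4 with FPKM + 0.1, 2 when only genes counted in every library were kept, 0 with FPKM + 1 or with Rh2 dose as a term, and 0 to 14 with a library left out. For Rh2, 0 genes passed, and 247 with the Wald test. Members at an unadjusted p-value under 0.05 with Rh2 numbered 1 with FPKM + 1, FPKM + 0.1 and Rh2 dose as a number, and 0 to 1 with a library left out. Foxo3 with Rh2 turned to -0.0570 with FPKM + 1 and to -0.0471 with FPKM + 0.1. With a library left out, the Rh2 change ranged from -0.32 to 0.027 for Fbxo32, -0.26 to 0.014 for Trim63, -0.55 to 0.28 for Mstn, -0.0055 to 0.25 for Foxo1, -0.095 to 0.31 for Foxo3, -0.080 to 0.092 for Fbxo30, -0.12 to 0.27 for Fbxo40, -0.0057 to 0.36 for Fbxo21, -0.46 to -0.17 for Acvr2b and 0.13 to 0.37 for Klf15. Against Control, 1 member was past a fold of 2 at either Rh2 dose given with Dox, and 0 with FPKM + 1 or FPKM + 0.1, which were added to Mstn levels of 0.139 to 0.376 FPKM. For Dox over Control the number stayed at 1, but it was Foxo3 in place of Mstn. The cause of the other changes was not tested. The labels give no replicate numbers (1 library per condition), so libraries could be paired only by Rh2 dose. The fit with Rh2 dose as a term compared libraries of the same dose. It called 3 members instead of 4 at an unadjusted p-value under 0.05, without Fbxo32.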
